A study of Mus musculus with 4 samples.

Results

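The genes described here are 7 genes of Schwann cells and their myelin, Pmp22, Mbp, Prx, S100b, Sox10, Cnp and Mag, read from the soleus of dystrophic mice. They were taken by symbol from a table of 24054 genes, were chosen by name as markers of nerve, with earlier results of these data known, and all 7 were found and had enough counts to be among the 13652 genes tested. Schwann cells are the glia of peripheral nerve. They wrap the larger axons that enter a muscle in myelin, a stack of membrane held together by a small set of proteins, and they also cap the nerve terminal at the neuromuscular junction. In whole-muscle RNA their transcripts come mainly from intramuscular nerve, although some of these genes, Pmp22 among them, are also expressed by other cells.

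The 4 libraries were made from total RNA of soleus, a slow hindlimb muscle, from female mdx mice (C57BL/10ScSn-DMDmdx/J). These mice are the dystrophin-deficient model of Duchenne muscular dystrophy, and both groups had this genotype. From 8 weeks of age, 2 muscles had been exposed to monthly femoral vein infusions of mouse cardiosphere-derived cells (mCDCs), stromal cells grown from the heart of 1 C57BL/10ScSn/J mouse, and 2 to infusions of IMDM culture medium alone (vehicle), until the 12-month endpoint. The infused cells are themselves mouse cells, so their reads cannot be told from those of the host. The deposited values are expected counts per gene, which need not be whole because a read that matches several genes can be divided among them. They summed to between 22481391 and 27187425 per library, and the 10 skeletal muscle genes used to check the tissue, among them slow fibre genes and some that all or fast fibres express, led by the slow myosin Myh7 and the general Acta1 and with Tnni1 changed most at a log2 fold change of 0.27 (adjusted p = 0.768 by edgeR's quasi-likelihood test), summed to between 127000 and 146000 CPM, which are counts divided by the scaled library size and multiplied to a common total. In vehicle replicate 2, genes of endothelium, fibroblasts and Schwann cells stood above the other 3 libraries, and the comparison between groups is therefore also given without it.

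Sox10 is the transcription factor that Schwann cells need at every stage. Mbp (myelin basic protein) and Pmp22 are structural proteins of compact myelin, Prx (periaxin) links the outer Schwann cell membrane to the basal lamina, Cnp is an enzyme and Mag an adhesion protein of the non-compacted membrane, and S100b is a calcium-binding protein widely used to stain Schwann cells. In GENCODE vM21 on GRCm38 (mm10), Pmp22 spans chr11:63128982-63159547 and Cnp chr11:100574904-100591729 on the plus strand, as do Prx at chr7:27499324-27520214 and S100b at chr10:76253853-76261159. Mag at chr7:30899176-30914873 and Sox10 at chr15:79154908-79165240 lie on the minus strand. Of the 7, 5 had promoter sequences in RefSeq on GRCm38.p6 that could be used here. The 250 bases before a start are printed for 4 of them, because the windows of Cnp and Mag shown hold a SOX motif and those of Pmp22 and Prx do not, while Pmp22 was the most level of the 7 among the libraries and Prx had the smallest p between the groups. Capitals mark the SOX motif ACAAAG, read on either strand (CTTTGT when on the opposite one, as in Mag), which occurred in 16.5% of 32841 promoter windows of this length. The second form searched, ACAATG (10.7% of windows), and the EGR motif GTGGGCG (7.02%) were in none of the windows of these 5 genes. A match is a description of the letters only.
Pmp22, first of 4 annotated starts, chr11:63128732-63128981, plus strand: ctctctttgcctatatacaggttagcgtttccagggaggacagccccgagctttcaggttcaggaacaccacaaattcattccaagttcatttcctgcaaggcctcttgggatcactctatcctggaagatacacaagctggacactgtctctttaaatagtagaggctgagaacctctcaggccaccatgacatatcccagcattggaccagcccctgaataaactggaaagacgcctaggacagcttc
Prx, chr7:27499074-27499323, plus strand: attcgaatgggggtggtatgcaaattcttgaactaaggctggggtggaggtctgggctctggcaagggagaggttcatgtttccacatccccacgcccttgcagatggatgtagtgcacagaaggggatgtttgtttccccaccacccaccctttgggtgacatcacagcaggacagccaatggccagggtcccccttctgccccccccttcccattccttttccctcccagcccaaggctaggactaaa
Cnp, chr11:100574689-100574938, plus strand: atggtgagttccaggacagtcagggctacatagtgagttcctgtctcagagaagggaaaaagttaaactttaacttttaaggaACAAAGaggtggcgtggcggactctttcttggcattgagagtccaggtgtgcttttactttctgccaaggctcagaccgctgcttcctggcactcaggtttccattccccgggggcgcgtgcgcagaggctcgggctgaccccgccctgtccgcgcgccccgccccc
Mag, the second of 3 annotated windows by position, chr7:30914864-30915113, minus strand: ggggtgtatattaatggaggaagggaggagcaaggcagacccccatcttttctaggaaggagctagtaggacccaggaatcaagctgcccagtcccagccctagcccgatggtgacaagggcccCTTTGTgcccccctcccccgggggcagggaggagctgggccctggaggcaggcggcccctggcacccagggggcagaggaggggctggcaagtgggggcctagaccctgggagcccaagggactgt
The match in Cnp began 167 bases before the start and that in Mag 126 bases before it. Of the 3 Mag windows, the one at chr7:30914322-30914571 held no match, and the one at chr7:30914923-30915172 held the same site, 67 bases before its own start. None of the 4 Pmp22 windows held any of the motifs, and the table gives 1 value for Pmp22 summed over its starts.

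Levels of the 7 genes differed widely. Per kilobase of transcript, averaged over the 4 libraries, Pmp22 had 18.3 CPM, Mbp 4.35, Cnp 2.67, Prx 0.777, S100b 0.461, Sox10 0.363 and Mag 0.174. This order was the same in each of the 4 libraries. The ranges over libraries of Pmp22, Mbp and Cnp did not meet, at 17.5 to 19.1, 3.45 to 6.10 and 2.33 to 3.23 CPM per kilobase. Those of the neighbours Prx and S100b, S100b and Sox10, and Sox10 and Mag did overlap.

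Between mCDC and vehicle muscles, the data held no called difference in any of the 7 genes. The highest value of Mbp, Prx, S100b, Sox10, Cnp and Mag was in vehicle replicate 2, the other vehicle library lay among or near the mCDC libraries, and Pmp22 was level across all 4. Calls followed the thresholds of the study's methods, a change of more than 1.5 times and p under 0.05 before adjustment, here in edgeR's quasi-likelihood test. By that rule 0 of the 7 were called higher, where 1.26% of all tested genes were, and 0 were called lower, where 2.74% were. None of the 7 had an unadjusted p under 0.05, also with DESeq2. No exact permutation test was run gene by gene, since 2 libraries against 2 cannot give a p below 0.333. A difference in these genes may be one in the number of Schwann cells or in the RNA of each, which bulk samples cannot tell apart.

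Pmp22, the most abundant, had 34.4 CPM in mCDC replicate 1, 32.2 in mCDC replicate 2, 31.5 in vehicle replicate 1 and 33.8 in vehicle replicate 2. The groups overlapped and the highest library was only 1.09 times the lowest. The group means were 33.3 ± 1.60 (SD, n = 2) and 32.6 ± 1.59 (SD, n = 2) CPM, which gave 0.03 on the log2 scale (standard error 0.14, adjusted p = 0.973 by edgeR's quasi-likelihood test). Outside nerve, fibroblasts and epithelia also make it.

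Mbp had 7.08 and 8.09 CPM in mCDC replicates 1 and 2, and 7.97 and 12.5 CPM in vehicle replicates 1 and 2. Vehicle replicate 1 lay between the mCDC libraries, and vehicle replicate 2 stood apart from the other 3. The log2 fold change was -0.44 (standard error 0.25, adjusted p = 0.747). Its expected counts were more than 0.001 from a whole number in 3 of 4 libraries.

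Prx had 2.73 and 3.61 CPM with mCDCs, and 3.59 and 6.04 CPM with vehicle. The second mCDC and the first vehicle library were nearly equal, so that the groups just overlapped. The log2 fold change was -0.61 (standard error 0.32, adjusted p = 0.735), the smallest p of the 7 before adjustment, 0.0891 in edgeR's quasi-likelihood test.

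For Cnp, mCDC muscles had 5.49 and 6.08 CPM and vehicle muscles 6.03 and 7.60 CPM. The groups overlapped, and next to Pmp22 it varied least, with the highest library 1.38 times the lowest. Its log2 fold change was -0.24 (standard error 0.22, adjusted p = 0.819). Its exons overlap those of Dnajc7 on the opposite strand by up to 154 bases and those of Prx overlap the opposite-strand gene Gm15541 by up to 127 bases. Dnajc7 had between 3268 and 3762 counts per library against 133 to 209 for Cnp, and whether the counting used strand is not given in the sources used here.

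The other 3 genes rested on few reads. S100b had 12 counts in each mCDC library, 15 in vehicle replicate 1 and 32 in vehicle replicate 2, or 0.454, 0.548, 0.572 and 1.16 CPM. It was the 1 gene of the 7 with both mCDC values under both vehicle values, a pattern of 19.5% of all tested genes, while none of the 7 had the opposite pattern, which 19.2% had. The step from mCDC replicate 2 to vehicle replicate 1 was smaller than counting error, since 95% exact Poisson intervals ran from 6.20 to 21.0 for 12 counts and from 8.40 to 24.7 for 15. The log2 fold change was -0.80 (standard error 0.52, adjusted p = 0.764).

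Sox10 had 18 and 20 counts with mCDCs, and 11 and 53 with vehicle, or 0.682, 0.914, 0.420 and 1.93 CPM. The vehicle libraries thus held both the lowest and the highest value, and their Poisson intervals, 5.49 to 19.7 and 39.7 to 69.3 counts, did not meet. The log2 fold change was -0.58 (standard error 0.65, adjusted p = 0.846). Mag had 6 and 11 counts with mCDCs, and 8 and 18 with vehicle (0.227, 0.502, 0.305 and 0.655 CPM), and its lowest and highest values had intervals of 2.20 to 13.1 and 10.7 to 28.4 counts, which overlapped. Its log2 fold change was -0.44 (standard error 0.65, adjusted p = 0.884). These intervals cover counting error only.

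**Figure D1:**
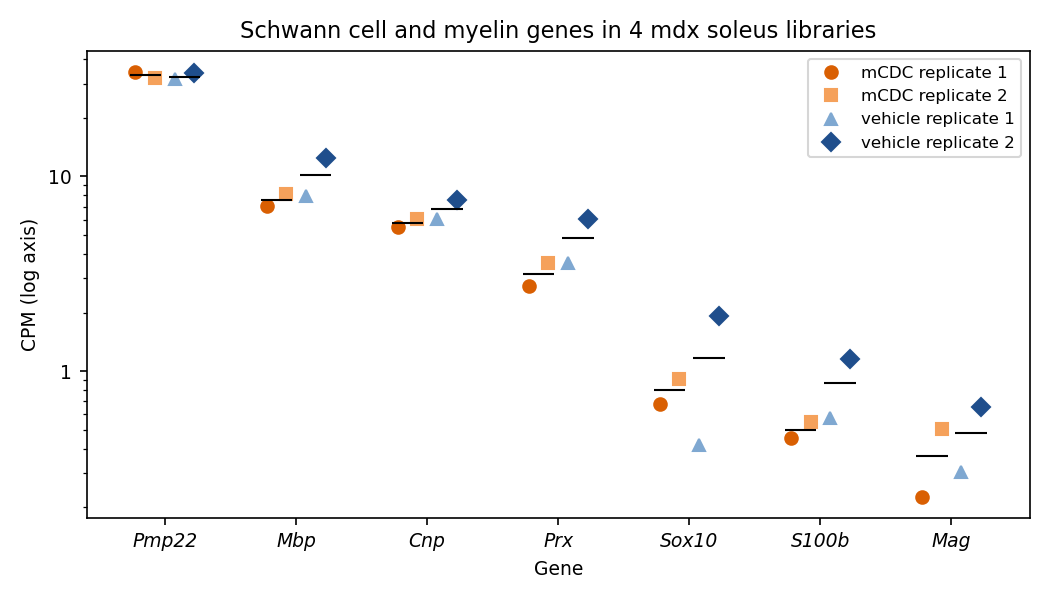
CPM on a log axis of the 7 Schwann cell and myelin genes in each of the 4 soleus libraries, with a short line at each group's mean of 2 libraries. Pmp22 is level near 33 CPM, while vehicle replicate 2 is the highest point for the other 6 genes.

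As a list, 6 of the 7 genes had a log2 fold change below 0 and the median was -0.44, beside a median of -0.01 over all 13652 genes tested. Vehicle replicate 2 was the highest library for 6 of the 7 genes and for 29.4% of all tested genes. Summed over the 6 genes other than Pmp22, the libraries held 16.7 and 19.7 CPM with mCDCs and 18.9 and 29.9 CPM with vehicle. The sum over all 7 was 51.1, 51.9, 50.4 and 63.7 CPM, of which Pmp22 alone was 67.4%, 62.0%, 62.5% and 53.0%.

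The lower values with mCDCs depended on vehicle replicate 2. Without it, the median log2 fold change of the 7 was -0.06, with all genes at 0.01, and 0 were called lower, where 2.53% of tested genes were. Mbp was then at -0.08, Prx at -0.19, Cnp at -0.06 and S100b at -0.20, while Sox10 and Mag were above 0, at 0.90 and 0.21. Without vehicle replicate 1, the median was -0.87, and 4 of the 7 were called lower, where 5.97% of 13972 tested genes were. These were Mbp (log2 fold change -0.72), Prx (-0.93), S100b (-1.21) and Sox10 (-1.28), and the smallest adjusted p among the 7 was 0.318 in edgeR's quasi-likelihood test. In that fit the lone vehicle library is assumed to vary like the mCDC libraries. Without mCDC replicate 1 the median was -0.34 and 0 of the 7 were called lower, where 3.89% of tested genes were. Without mCDC replicate 2 these were -0.79, 0 and 1.69%. No setting that left out a library called any of the 7 higher.

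**Figure D2:**
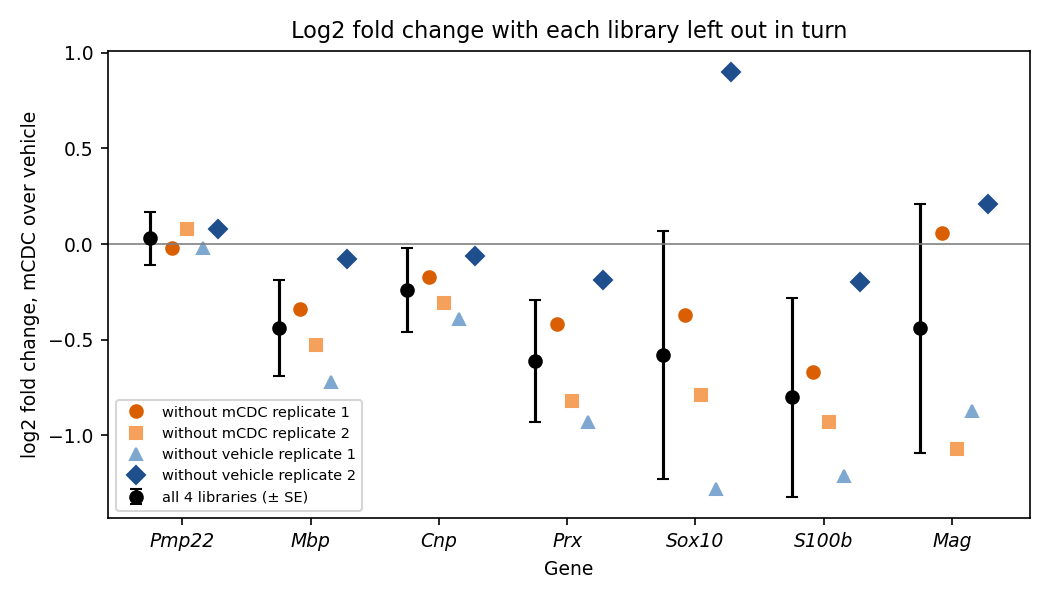
Log2 fold change of mCDC over vehicle for the 7 genes with all 4 libraries (black, ± standard error of the fit) and after leaving out 1 library at a time (colours). Points without vehicle replicate 2 lie nearest to or above 0 for all genes but Pmp22, whose 5 values stay between -0.02 and 0.08.

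Of 17 other myelin membrane, junction and paranode genes, 14 were tested, 0 were called, and 13 had a log2 fold change below 0, with a median of -0.25. Vehicle replicate 2 was the highest library for 8 of the 14. Mpp6 and Drp2, with means over the libraries of 76.8 and 59.2 CPM, were the most abundant, above every gene among the 7 on that scale. Both were highest in vehicle replicate 1, and whole-muscle RNA cannot tell which cells made them. Pllp, a myelin membrane protein, had the largest change of the list, with 0.265 and 0.594 CPM against 0.572 and 1.2 CPM (log2 fold change -1.09, standard error 0.59, adjusted p = 0.737 by edgeR's quasi-likelihood test). It rested on 7 and 13 counts with mCDCs and 15 and 33 with vehicle. Gjb1, a gap junction protein of myelin, had too few counts to be tested.
Among 16 tested Schwann cell transcription factors and signalling genes, the median was -0.08. Nab2, a partner of the EGR factors, was the 1 gene called, higher with mCDCs at 17.3 and 36.5 CPM against 12.3 and 18 CPM (log2 fold change 0.82, adjusted p = 0.713), and its groups overlapped. Egr2, the factor that switches on the myelin genes with Sox10, had 0.720 and 3.06 CPM with mCDCs and 1.53 and 1.13 CPM with vehicle, and thus did not follow the 7 genes. Among 12 tested genes of non-myelinating and repair Schwann cells, 0 were called and 6 were above and 6 below 0. Ncam1 and Art3 were the most abundant, at means of 99.5 and 79.7 CPM over the libraries. Neither was highest in vehicle replicate 2, and whole-muscle RNA cannot tell which cells made them. Cdh19, an adhesion protein of Schwann cell precursors, had the largest change, at -1.18 (standard error 0.62, adjusted p = 0.735 by edgeR's quasi-likelihood test). It rested on 8 and 3 counts with mCDCs and 12 and 16 with vehicle. Of the genes that Schwann cells of injured nerve make, Bdnf had 7.22 to 12.3 CPM, Gdnf 0.868 to 1.44, Ngfr 0.303 to 0.837 and Artn 0.114 to 0.473, while Gfap, Gap43 and Shh were at or under 3 counts in every library.
Of 12 tested genes of inherited demyelinating neuropathy and 10 of myelin lipid synthesis, 0 were called, and their medians were -0.17 and 0.14. In the first list Sh3tc2, a Schwann cell endosome protein, had the largest change at -0.89 (adjusted p = 0.731), and Sbf1 and Hk1 were the most abundant. In the second, Degs1 and Srebf1 were the most abundant and Fasn had the largest change at -0.41 (adjusted p = 0.763).

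Of 10 genes of oligodendrocytes, the myelinating cells of the central nervous system, 7 were at or under 3 counts in every library. Mog, Mobp, Olig2 and Opalin had 0 counts in all libraries, which allows up to 3 counts or 0.109 to 0.137 CPM in each. Aspa, an enzyme with 4.11 to 6.62 CPM, and Mag were tested, and Ermn had 2 to 6 counts. Of 13 axon and motor neuron genes, 5 were tested and 7 were at or under 3 counts in every library, among them Nefl, Nefh, Chat and Slc18a3. Uchl1 and Stmn2 were the most abundant of the 5, though whole-muscle RNA cannot tell which cells made them. Prph had the largest change, at -0.79 (standard error 0.41, adjusted p = 0.735 by edgeR's quasi-likelihood test).

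Like 6 of the 7 genes, markers of several other cell types were highest in vehicle replicate 2. In vehicle replicate 2 the summed level was 260 CPM for 8 endothelial genes, against 144, 113 and 121 CPM in mCDC replicates 1 and 2 and vehicle replicate 1, and 1060 CPM for 8 fibroblast genes, against 703, 564 and 672 CPM. All 8 endothelial and all 8 fibroblast genes were highest in vehicle replicate 2. For 8 macrophage genes the sums were 30.9 and 38.5 CPM with mCDCs and 28.5 and 48.7 CPM with vehicle. Of the 8 fibroblast genes, Lum and Pdgfra were called lower with mCDCs, at -1.02 and -0.74 (adjusted p = 0.626 and 0.713 by edgeR's quasi-likelihood test). Of the 8 endothelial genes, Vwf was called lower, at -0.90 (adjusted p = 0.619 in the same test). Of the 8 macrophage genes, Csf1r was called lower, at -0.67, and Cd68 higher, at 1.49 (adjusted p = 0.713 and 0.7 in the same test). Over all tested genes, 2.74% were called lower and 1.26% higher. Each gene called lower here was highest in vehicle replicate 2. The groups overlapped for Cd68, with 4.13 and 15.4 CPM against 2.71 and 4.15 CPM, and mCDC replicate 2 alone stood apart. Of 8 adipocyte genes, 0 were called. The defining Adipoq, Plin1, Cidec and Lep were lowest in vehicle replicate 2 (1.49, 0.728, 1.27 and 0.327 CPM) and highest in vehicle replicate 1 (5.46, 5.11, 4.85 and 2.56 CPM). Plin4 and Fabp4, the most abundant of that list, were highest in vehicle replicate 2 (572 and 200 CPM). The part of these other cells in the values of the 7 genes was not tested.

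**Figure D3:**
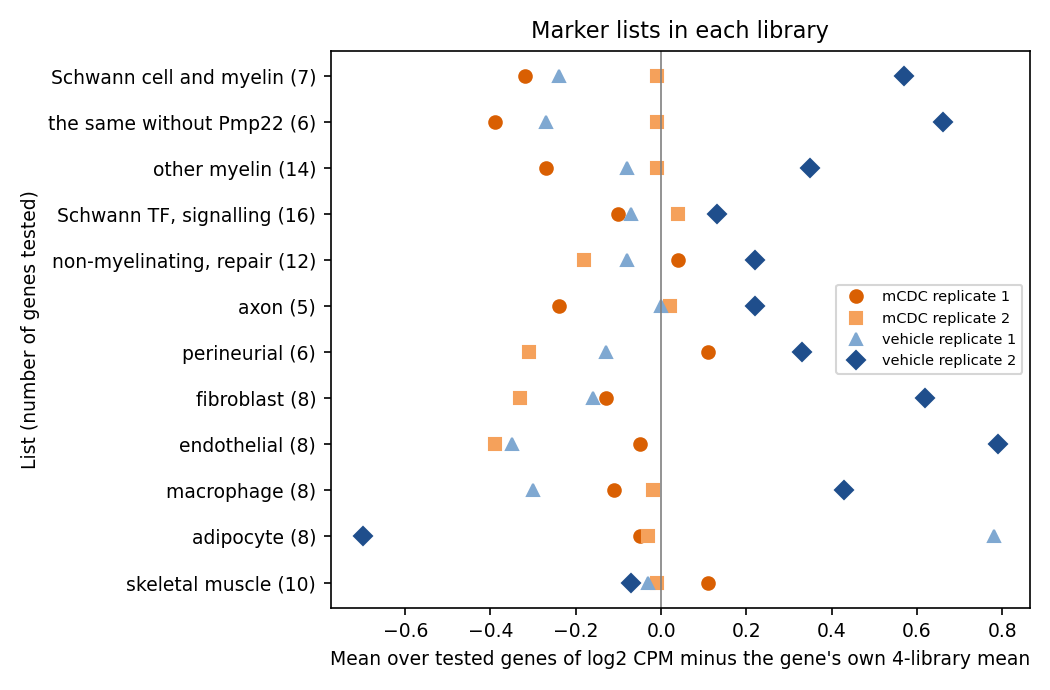
For each list of genes, the mean over its tested genes of log2 CPM minus the gene's own mean over the 4 libraries. Vehicle replicate 2 is the rightmost point for the Schwann cell and myelin genes (0.57) and for the endothelial (0.79) and fibroblast (0.62) lists, and the leftmost for the adipocyte list (-0.70).

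The genes outside the 7 whose pattern lay nearest to their mean were Dnmt3b, Trpv2, Mdk, Dennd1c and Tmem255a, by the root mean square difference of centred log2 CPM over the 4 libraries, which was 0.02 for Dnmt3b, 0.03 for the next 3 and 0.04 for Tmem255a. All 5 had low levels, from 0.341 to 2.22 CPM. By the same measure, among 13645 genes, ranks in the other myelin and Schwann cell lists were spread widely. Pou3f2 ranked 32, Ncmap 66 and Lgi4 99, while Drp2 ranked 9402, Nab2 12877, Gldn 12972, Egr2 13376 and Tfap2a 13550. With 4 libraries these ranks describe a likeness of shape and carry no test.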

How the data were processed

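Expected counts per gene, not scaled, were deposited by the authors, who aligned single-end reads with Bowtie2 (2.1.0) and quantified them with RSEM (1.2.15). The submitters' processing notes name mm10. The library kit is xGen Broad-Range in the methods but TruSeq Stranded mRNA in the sample records. Counts were rounded, filtered with filterByExpr and scaled by TMM, and log2 CPM used a prior count of 2. The counts were tested, mCDC against vehicle, with edgeR 4.0.16 (quasi-likelihood, legacy = FALSE, R 4.3.3) and Benjamini-Hochberg adjustment over 13652 genes. Of these, 0 had an adjusted p under 0.05 and 947 an unadjusted one, and DESeq2 1.42.0, run on 18132 genes, gave 48 with an adjusted p under 0.05. Standard errors are the size of the log2 fold change over the root of F.

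The labels do not say that the muscles of a group came from separate animals, so p-values measure only the spread between these samples. With 22481391 to 27187425 counts per library, 1 count was 0.0364 to 0.0457 CPM. Lengths were GENCODE vM21 medians (GRCm38).

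The 7 genes and all lists were chosen with earlier results of these data known. Each other list is represented by its called genes, or else by its 2 most abundant tested genes and the 1 that changed most, besides genes a result turned on. Results for some genes of these lists are not reported here. The fit was tested on simulated data. Alternatives were DESeq2, the legacy form, other scalings and filters, the replicate block, a length and GC correction, and each library left out.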

Additional observations from a re-analysis of the deposited data

How the results depend on the processing

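None of the 7 genes was called under DESeq2, the legacy form, RLE size factors, plain library totals, no low-count filter, a minimum of 10 counts in each library (which removed Mag), the replicate block, or removal of a length and GC trend. With each library left out in turn the number called ran from 0 to 4, the 4 being without vehicle replicate 1, and the median log2 fold change from -0.87 to -0.06. Over all genes these fits called between 112 and 397 higher and between 236 and 834 lower, against 172 and 374 with all libraries. Calls that were higher made up 31.5% of all calls, 42.4% with the length and GC trend removed, and 19.2% with plain library totals. The near-zero value of Pmp22, 0.03, turned to -0.052 with plain library totals, -0.020 without mCDC replicate 1 and -0.016 without vehicle replicate 1, and was at most 0.078 with a library left out. Mag turned to 0.057 without mCDC replicate 1 and 0.21 without vehicle replicate 2, in a range from -1.07, and Sox10 to 0.90 without vehicle replicate 2, in a range from -1.28. The cause of these changes was not tested.

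The replicate numbers were not taken as pairs, since over all tested genes libraries with the same number did not deviate together (correlation of deviations -0.0388). Among the 7, however, replicate 1 was below replicate 2 in both groups for every gene but Pmp22. The standard error of Prx was 0.25 with the number as a block and 0.32 without it, and that of Pmp22 was 0.14 in both. With the number as a block, 172 genes were called higher and 308 lower, 0 of them among the 7, whose median was -0.40. Counts of 6 to 53 limit S100b, Sox10 and Mag. With 2 libraries in a group, no test for an outlying sample within a group was made.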

Other observations

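2 further marker lists held a called gene. Slc2a1, the glucose transporter GLUT1, which perineurial cells and many other cells express, was higher with mCDCs, at 31.9 and 37.0 CPM against 21.2 and 17.8 CPM (log2 fold change 0.82, standard error 0.17, and adjusted p = 0.462 in edgeR's quasi-likelihood fit). It was the 1 gene called of 6 tested perineurial genes, whose median was -0.43. Dct, a melanin enzyme, was higher at 0.530 and 1.19 CPM against 0.229 and 0.109 CPM (log2 fold change 2.29, standard error 0.69, adjusted p = 0.635 in the same fit). It rested on few reads, 14 and 26 counts with mCDCs and 6 and 3 with vehicle. The other tested melanocyte genes, Tyr, at 5.23 to 6.58 CPM, and Mitf, had log2 fold changes of 0.08 and -0.19. The median of these 3 genes was 0.08. Tyrp1, Slc45a2 and Oca2 were at or under 3 counts in every library.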
